A study of Mus musculus with 24 samples.

Results

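NEBNext 100 ng and SMARTseq 10 ng libraries of mouse kidney were compared gene by gene. Both sets were made from the same total RNA, so that differences in counts between the sets arise after RNA extraction. The members are all 12 libraries of these sets, 6 per set, out of 24 libraries in the study, chosen by the kit and input named in their titles. Abundance was compared for the 10127 of 37315 genes in the count table with at least 10 allelic counts in every one of the 12 libraries.

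The RNA was extracted with Trizol from the left kidney of an adult female F1 mouse of the cross 129S1/SvImJ x CAST/EiJ, and is thus from 1 animal. The paper takes the strain named first as the maternal strain, so every maternal allele is also an allele of that strain. For the NEBNext set, 100 ng of total RNA went into the NEBNext Ultra kit with poly-A selection. For the SMARTseq set, 10 ng went into the SMARTseq v4 kit for low inputs. Kit and input changed together, so their parts in any difference cannot be told apart. The 6 libraries of a set are technical replicates from separate library preparations, and every p-value below measures only the spread between such preparations.

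Both kits start from polyadenylated RNA but make cDNA differently. In the NEBNext protocol, purified mRNA is fragmented before random-primed reverse transcription, so that each transcript enters the library as short pieces. In the SMARTseq protocol, an oligo-dT primer starts cDNA at the poly-A tail, the enzyme adds a template-switching sequence when it reaches the 5′ end of the RNA, and the whole cDNA is amplified by PCR before it is fragmented. The kidney holds cell types with very different transcriptomes. Proximal tubule cells, which reabsorb most of the filtrate, are rich in mitochondria and membrane carriers, while podocytes, collecting duct cells, endothelium and immune cells are rarer.

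The deposited values are allelic counts, that is, read counts at positions where the parental strains differ, summed over the exons of a gene for the maternal and the paternal allele. Maternal and paternal counts were added to give abundance, and expressed as CPM, the count relative to a library total that was scaled by the trimmed mean of M-values (TMM). Totals lay between 6138693 and 6702351 in NEBNext libraries and between 6360257 and 6397679 in SMARTseq libraries. A gene without such positions has no count. Fold changes are SMARTseq over NEBNext on the log2 scale, from edgeR's quasi-likelihood test with Benjamini-Hochberg adjustment, given with their standard error. A positive value thus means higher in SMARTseq. The kidney origin was checked on marker genes. Proximal tubule carriers were abundant in both sets, as for the phosphate carrier Slc34a1 (8561 to 9466 CPM (median 8665) in NEBNext and 6992 to 7155 CPM (median 7008) in SMARTseq). Of the markers not expected in kidney, Alb was the exception, at 21.2 to 31.1 CPM in NEBNext and 16.1 to 20.4 CPM in SMARTseq, and the other 7 (Apoa1, Cyp11b1, Star, Cyp21a1, Adipoq, Plin1 and Cidec) stayed below the count limit in at least 1 library. Star had the highest count among these, 53. Cyp11b1 was at 0 counts in all 12 libraries, as was the globin gene Hba-a1, and 0 counts throughout can mean a gene without usable positions.

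The measured abundance of most genes differed between the sets. Of 10127 genes, 80.2% had an adjusted p of at most 0.05, with 3948 higher in SMARTseq (39.0%) and 4175 higher in NEBNext (41.2%). A change of at least 2-fold with the same adjusted p was found for 34.2% of genes, 1878 higher in SMARTseq (18.5%) and 1588 higher in NEBNext (15.7%). CPM ranges of the kits did not overlap for 6355 genes (62.8%). The median standard error was 0.11. This division into higher and lower rests on the scaling. On unscaled totals 2951 genes were higher in SMARTseq and 5515 were higher in NEBNext, and the median of all genes moved from -0.05 to -0.39. Changes of gene groups are therefore given beside the median of all genes. Without NEBNext replicate 1, 1971 genes were higher in SMARTseq and 1583 higher in NEBNext at 2-fold.

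The kits also differed in how counts were spread over genes. A NEBNext library held at least 10 counts for 12065 ± 44.7 genes (SD, n = 6), from 11994 to 12111, and a SMARTseq library for 11710 ± 18.0 genes (SD, n = 6), from 11692 to 11740. The 100 genes with most counts took 28.4% ± 0.20 of counts in NEBNext and 30.7% ± 0.06 in SMARTseq (SD, n = 6). For the 10 genes with most counts the direction turned, with a difference of -1.56 percentage points, SMARTseq minus NEBNext (exact permutation p = 0.0022). The 2520 tested genes with the longest merged exons, of at least 7006 bases, took 18.2% ± 0.56 of counts in NEBNext (SD, n = 6), from 17.2% to 18.7%, and from 10.9% to 11.1% in SMARTseq (SD 0.04, n = 6). The ranges of the kits did not overlap for any of these measures. For each, the two-sided exact permutation test of 6 against 6 libraries gave p = 0.0022, which is the smallest p that 924 splits allow, and the adjusted p over 4 tests was 0.0022.

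**Figure D1:**
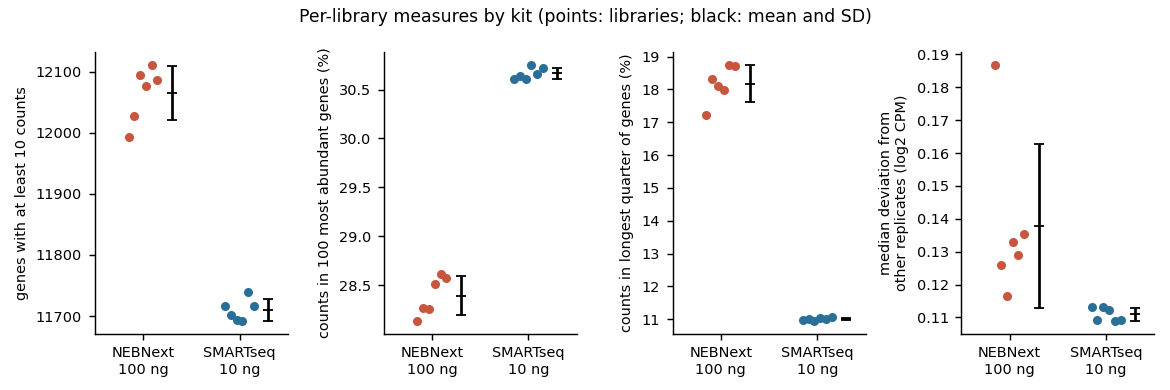
Per-library measures by kit, with 1 point per library and the mean ± SD in black (n = 6 per kit), for genes with at least 10 counts, the percentage of counts in the 100 most abundant genes, the percentage of counts in the longest of 4 length classes, and the median deviation of a library from the other replicates of its kit in log2 CPM. The axes do not start at 0, and the kits do not overlap in any panel, while NEBNext replicate 1 stands at 0.187 in the last panel.

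Replicates of the SMARTseq set lay closer together. The fourth measure was the median over genes of the distance between a library and the mean of the other 5 in its kit. It was 0.138 ± 0.025 in NEBNext and 0.111 ± 0.002 in SMARTseq on the log2 scale (SD, n = 6, exact permutation p = 0.0022). Since each library was set against the others of its kit, the 6 values of a kit depend on each other. The values were not recomputed for each split, so for this measure the p is a description only. NEBNext replicate 1 stood apart at 0.187, against 0.117 to 0.135 in the other 5 libraries of its kit. Without it the difference between kits shrank from -0.027 to -0.017. In pairs of libraries, squared differences were 2.99-fold to 7.74-fold those of independent counts in NEBNext and 2.13-fold to 2.24-fold in SMARTseq. NEBNext pairs with replicate 1 lay at 5.81-fold to 7.74-fold, and NEBNext pairs without it at 2.99-fold to 4.37-fold. Since a read over several positions can count more than once, values above those of independent counts do not by themselves show that libraries differ.

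Some very abundant genes varied less than counting noise. Of the genes that averaged 8000 counts or more, 11 of 106 in SMARTseq and 1 of 80 in NEBNext had a variance under 0.3 of the mean, the variance of counting noise being equal to the mean. Cox8a, a subunit of cytochrome c oxidase, had 7999 to 8008 counts in the 6 SMARTseq libraries. Gpx3, the plasma glutathione peroxidase made by the kidney, had 23920 to 23989 counts, and Ftl1, the ferritin light chain, 31242 to 31308 counts. These genes were chosen after their values were seen, and the cause was not tested. Of the tested genes, 141 reached 8000 counts in a library, and fold changes of such genes may be too small if their counts have a ceiling. Leaving them out gave 1836 genes higher in SMARTseq and 1561 higher in NEBNext at 2-fold.

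Transcript length was the property most closely related to the kit difference among those examined. Lengths and GC contents are those of the longest transcript of each gene in GENCODE M21, available for 10070 genes. Genes were put into 10 length classes of near-equal size. In the shortest, of up to 1455 nt, the median log2 fold change was 1.40, and 70.2% of genes were at least 2-fold higher in SMARTseq, against 1.59% in NEBNext. In the longest class, of 6823 nt or more, the median was -0.59, and 30.9% of genes were at least 2-fold higher in NEBNext, against 4.37% in SMARTseq. Medians fell from each class to the next. Across genes, Spearman's rho between log2 fold change and length was -0.53 (n = 10070 genes, which are not independent replicates and share the 12 libraries). It was -0.55 for the 5034 genes with at least 100 counts in every library.

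The kit difference also varied with GC content, over genes of all lengths and within length classes. Over all lengths, the median log2 fold change was 0.26 in the lowest of 10 GC classes, of up to 41.8% GC. In the highest, above 57.4% GC, it was -0.62. The difference by GC was small among short transcripts and large among long ones. With 4 classes for length and 4 for GC, medians in the shortest class were 1.10 at lowest and 0.76 at highest GC. In the longest class they were -0.13 at lowest and -1.496 at highest GC, and 77.6% of these 353 long and GC-rich genes were at least 2-fold higher in NEBNext. These are descriptions of the tested genes, and length and GC also go along with gene class.

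**Figure D2:**
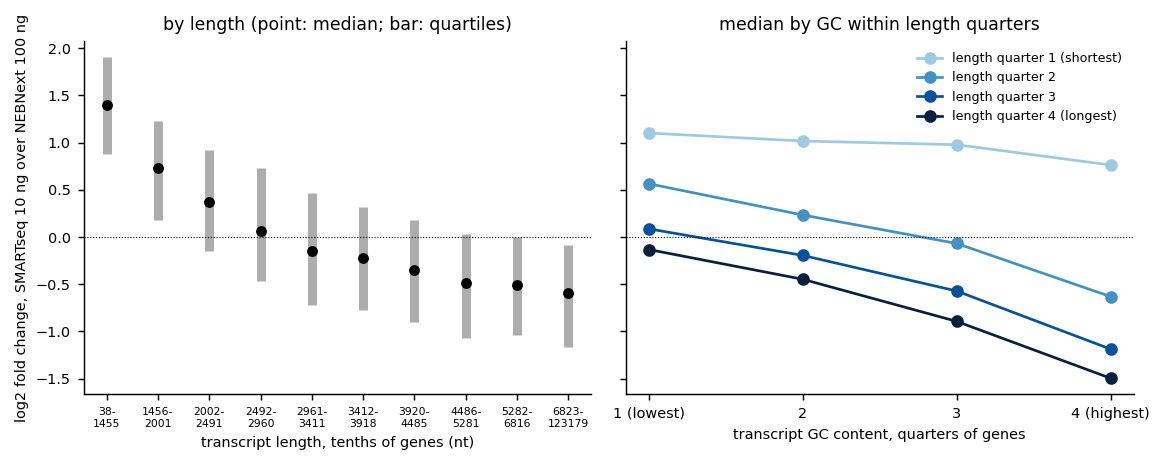
Median log2 fold change (SMARTseq 10 ng over NEBNext 100 ng) in 10 transcript length classes (left, in nt, bars give the quartiles) and in 4 GC classes within each of 4 length classes (right). Medians fall from 1.40 in the shortest to -0.59 in the longest of 10 classes, and in the longest of 4 from -0.13 at lowest to -1.496 at highest GC.

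Of the 10 genes with the largest rise in SMARTseq, 7 had transcripts of 628 to 980 nt. Transcripts were longer for Chchd2 (2069 nt), and for Bcas2 (3878 nt) and Mpc2 (4015 nt) they exceeded the median of all tested genes, 3411 nt. Spink1, a secreted trypsin inhibitor with a transcript of 729 nt, had 1.60 to 2.54 CPM (median 2.34) in NEBNext and 146 to 159 CPM (median 148) in SMARTseq. Its log2 fold change of 6.08 ± 0.091 was the highest of all tested genes. Mpc2 encodes a subunit of the mitochondrial pyruvate carrier (chr1:165460637-165481214, GRCm38). It had 43.9 to 53.0 CPM (median 46.6) in NEBNext and 945 to 958 CPM (median 949) in SMARTseq, and its log2 fold change was 4.32 ± 0.042. Chchd2, a small mitochondrial protein, had 71.3 to 88.9 CPM (median 83.4) and 993 to 1033 CPM (median 1001), in the same order, and rose by 3.63 ± 0.041. Hbb-bs, an adult beta globin of red cells, had 24.01 to 34.7 CPM (median 30.6) in NEBNext and 359 to 387 CPM (median 365) in SMARTseq. The other 6 were Edf1, Nat8b-ps, Cox14, Hint1, Mpv17l2 and Bcas2, with log2 fold changes from 3.50 to 3.97. Adjusted p values for these 10 genes ran from 8.35e-33 to 1.41e-16 in edgeR's test. Globin counts may be shared between near-identical copies, and Nat8b-ps is a processed pseudogene whose reads may be hard to tell from its parent. Reads that aligned to several places were not counted.

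The 10 genes with the largest fall were longer than the median of tested genes, 3411 nt, and GC-rich, with transcripts of 3727 to 14187 nt and 55.0% to 60.9% GC. Cdc42bpb, a kinase that acts with Cdc42 on the actin skeleton (chr12:111292976-111377718), had 83.0 to 117 CPM (median 108) in NEBNext and 4.54 to 7.22 CPM (median 5.28) in SMARTseq, and a log2 fold change of -4.24 ± 0.11. Hspg2, the basement membrane proteoglycan perlecan (chr4:137468769-137570630), had 132 to 171 CPM (median 155) in NEBNext and 6.37 to 11.4 CPM (median 8.57) in SMARTseq. Sema3g, a semaphorin, had 216 to 262 CPM (median 237) and 13.4 to 19.4 CPM (median 16.2), in the same order. Per1, a core gene of the circadian clock, had 73.4 to 88.1 CPM (median 78.6) in NEBNext and 5.12 to 9.37 CPM (median 7.67) in SMARTseq, and Sik1, a salt-inducible kinase, had 139 to 166 CPM (median 153) and 12.9 to 17.7 CPM (median 13.5). Piezo1, the mechanically gated channel, had 28.3 to 57.6 CPM (median 53.1) in NEBNext and 3.54 to 6.16 CPM (median 4.31) in SMARTseq. Midn, Zmiz2, Sun2 and Wnk4 completed the 10, with log2 fold changes from -4.11 to -3.37. Separate CPM ranges were a condition for naming these 10 genes and the 10 above.

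**Figure D3:**
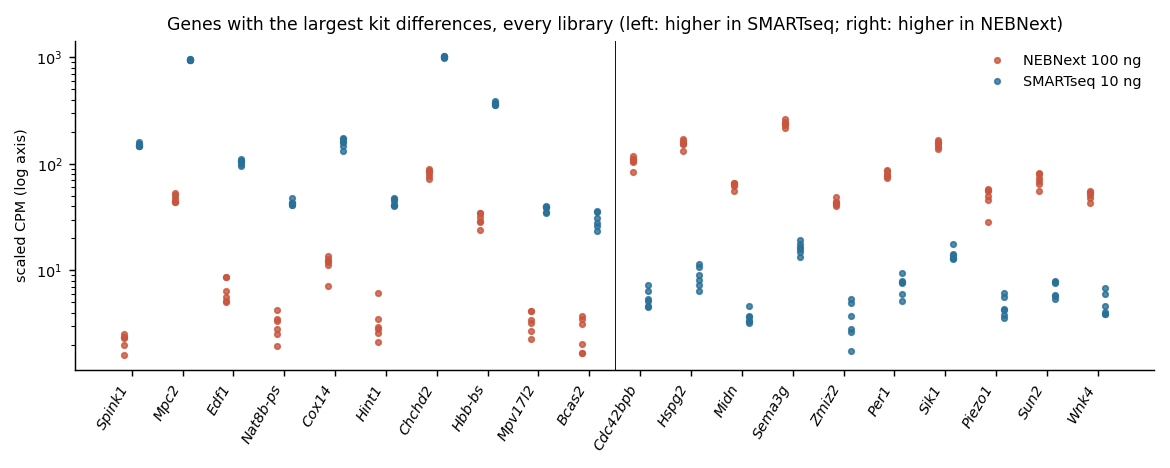
Scaled CPM (log axis) of the 10 genes with the largest difference in each direction, with 1 point per library and 6 libraries per kit. Genes were chosen for CPM ranges that do not overlap, and the difference is largest for Spink1, with 1.60 to 2.54 CPM (median 2.34) in NEBNext and 146 to 159 CPM (median 148) in SMARTseq.

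Kidney programmes and gene classes were examined as 30 lists of genes, 15 of each kind. For each, the number of members called is given beside the median of all tested genes, -0.05, and the share of all genes called in that direction, 39.0% higher in SMARTseq and 41.2% higher in NEBNext. Members called at 2-fold stand beside 18.5% of all genes higher in SMARTseq and 15.7% higher in NEBNext. On unscaled totals the medians of 7 lists turned from above to below 0, namely principal cell (-0.0035), gluconeogenesis and ammonia production (-0.18), translation factors (-0.21), immediate early and heat shock genes (-0.24), cholesterol synthesis (-0.27), cytochrome P450 (-0.28) and named long noncoding RNAs (-0.29). In every list the kit with more called members was the same without NEBNext replicate 1.

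Components of the mitochondrion stood highest in SMARTseq. Of 59 nuclear-encoded subunits of the respiratory chain, which carries electrons to oxygen and makes ATP, 56 were higher in SMARTseq and 2 higher in NEBNext, and 48 were at least 2-fold higher. Their median was 1.79. They took 2.34% to 2.58% of counts in NEBNext and 5.79% to 5.85% in SMARTseq. Of them, 16 reached 8000 counts in a library, Uqcr10 among these. Uqcr10, a small subunit of complex III, had the most counts of the list and rose by 2.24 ± 0.033, from 818 to 1001 CPM (median 883) to 4158 to 4229 CPM (median 4208). Ndufb6 of complex I had 75.8 to 93.5 CPM (median 81.9) in NEBNext and 744 to 762 CPM (median 754) in SMARTseq, the largest rise of the list. The large complex I subunit Ndufs1, with a transcript of 2661 nt, was lower at -0.18 ± 0.045, with overlapping ranges.

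Of 65 mitochondrial ribosomal proteins, 63 were higher in SMARTseq and none was higher in NEBNext, with a median of 1.53. Mrps24 had 139 to 173 CPM (median 163) in NEBNext and 802 to 859.6 CPM (median 823) in SMARTseq. Mrpl54 had the largest rise, at 3.20 ± 0.13, and Mrpl37 the smallest called one, at 0.36 ± 0.053, which on unscaled totals was 0.022 with an adjusted p of 0.695. Proteasome subunits behaved in a like way, with 31 of 33 higher in SMARTseq, 1 lower and a median of 1.37. Psma6, of the catalytic core particle, rose by 3.31 ± 0.094, from 7.52 to 11.6 CPM (median 9.27) to 89.5 to 97.6 CPM (median 95.4), and Psmb1, with the most counts, rose by 1.37 ± 0.035. Psmd3, a larger subunit of the regulatory cap, was the member that was lower, at -0.88 ± 0.049. All 18 glutathione S-transferases, which detoxify electrophiles, were higher in SMARTseq, 14 of them at least 2-fold, with a median of 1.40. Gsta2, with the most counts, had 1339 to 1497 CPM (median 1396) in NEBNext and 2960 to 3055 CPM (median 2987) in SMARTseq. Gstp1 rose most, at 2.69 ± 0.068, and Gstz1 least, at 0.48 ± 0.026.

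Cytoplasmic ribosomal proteins did not follow the other short classes. The median transcript of this list was 1232 nt, close to 1251 nt for the respiratory chain, but 18 of 61 members were higher in SMARTseq and 32 were higher in NEBNext, with a median of -0.22. Rplp0, with the most counts, rose by 0.71 ± 0.029. Rpl27 rose by 2.72 ± 0.14, from 3.15 to 8.15 CPM (median 6.05) to 35.6 to 43.5 CPM (median 38.8). Rps12 fell most, at -2.30 ± 0.053, from 314 to 391 CPM (median 334) in NEBNext to 64.0 to 72.2 CPM (median 69.9) in SMARTseq. Ribosomal protein genes have many near-identical pseudogenes, so that their counts are uncertain. As a rough allowance for length, each gene's log2 fold change was also taken relative to the median of its class among the 10 length classes. This step was chosen after the data were seen. It uses the longest annotated transcript, which need not be the one expressed, so a relation to length may remain. On this scale the median was -1.18 for cytoplasmic ribosomal proteins, 1.07 for mitochondrial ribosomal proteins, 0.65 for respiratory chain subunits, 0.66 for proteasome subunits and 0.10 for glutathione S-transferases.

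Extracellular matrix genes stood lowest in SMARTseq. Of 24 collagens and laminins, 23 were higher in NEBNext, 16 of them at least 2-fold, and 1 was higher in SMARTseq. Their median was -1.09, and -0.53 relative to length classes, with a median transcript of 6620 nt. They took 0.302% to 0.354% of counts in NEBNext and 0.105% to 0.113% in SMARTseq. Lama5, a chain of the glomerular basement membrane laminin, had 67.2 to 95.7 CPM (median 84.6) in NEBNext and 10.7 to 14.1 CPM (median 13.2) in SMARTseq, and a log2 fold change of -2.70 ± 0.10. Col4a3, a chain of the collagen IV network of that membrane, had the most counts and fell by 0.59 on the log2 scale. Col8a1 was the member called higher, at 0.31 ± 0.14 with an adjusted p of 0.043 in edgeR's test, a call lost without any one of 5 libraries (NEBNext replicates 2, 3 and 4 and SMARTseq replicates 2 and 5, adjusted p from 0.059 to 0.127) and with the sign turned to -0.024 on unscaled totals. Among 10 genes of mesangium, fibroblasts and smooth muscle, 3 were higher in SMARTseq and 7 higher in NEBNext, with a median of -0.86. Dcn, the matrix proteoglycan decorin, was the one with the most counts and rose by 0.92 ± 0.048, while the collagen I chain Col1a2 was lowest, at -1.28 ± 0.14.

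**Figure D4:**
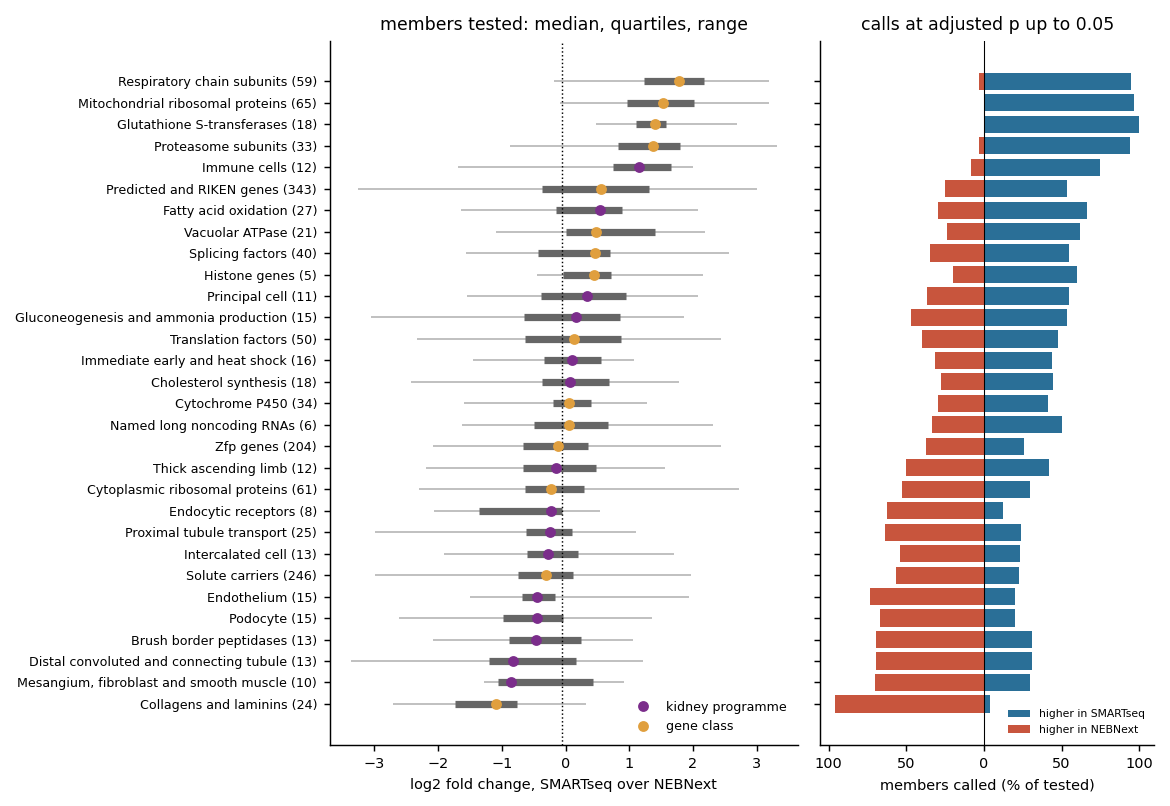
Left, log2 fold change (SMARTseq over NEBNext) of the tested members of 30 gene lists, with the median as a point, quartiles as a thick bar and the range as a thin line. The dotted line is the median of all genes (-0.05), and member numbers stand in parentheses. Right, percentage of tested members called at an adjusted p of at most 0.05, higher in SMARTseq to the right of 0 and higher in NEBNext to the left. Medians run from 1.79 for respiratory chain subunits to -1.09 for collagens and laminins.

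Genes of podocytes, which cover the capillaries of the kidney's filter, were mostly lower in SMARTseq, though not at 2-fold. Of 15 podocyte genes, 10 were higher in NEBNext and 3 higher in SMARTseq, and 4 and 3 were so at 2-fold. The median was -0.45, and -0.20 relative to length classes. Podxl, the charged surface protein podocalyxin, had 266 to 367 CPM (median 349) in NEBNext and 199.7 to 216 CPM (median 207) in SMARTseq. Nphs1, which encodes the slit diaphragm protein nephrin, had 39.5 to 49.9 CPM (median 43.6) in NEBNext and 4.40 to 8.83 CPM (median 7.78) in SMARTseq, a log2 fold change of -2.62 ± 0.13. Ptgds, a prostaglandin D synthase with a transcript of 1327 nt, rose by 1.36 ± 0.090. Of 15 endothelial genes, 11 were higher in NEBNext and 3 higher in SMARTseq, and 3 and 1 were so at 2-fold. Their median was -0.44, and -0.15 relative to length classes. The vascular cadherin Cdh5 fell most, at -1.503 ± 0.073, and the tight junction gene Cldn5 rose most, at 1.94 ± 0.21. Emcn, with the most counts, was at 0.25 ± 0.048 with overlapping ranges, and at -0.090 on unscaled totals. Since all libraries came from 1 RNA, these are not differences in cell number.

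Genes of the proximal tubule were mostly lower in SMARTseq. Of 25 carriers, 16 were higher in NEBNext and 6 higher in SMARTseq, with a median of -0.25, and 3 and 1 were so at 2-fold. Relative to length classes the median of the carriers was 0.02, so they were not lower on that scale. Slc34a1, with the most counts, was at -0.33 ± 0.022. Slc9a3, the apical sodium-proton exchanger, had 21.1 to 38.3 CPM (median 31.3) in NEBNext and 2.28 to 5.28 CPM (median 4.06) in SMARTseq, a log2 fold change of -2.99 ± 0.18, and Slc22a30 rose by 1.11 ± 0.19. Of 8 genes of the apical endocytic pathway, 5 were higher in NEBNext and 1 higher in SMARTseq, with a median of -0.25 relative to length classes. Both giant receptors of that pathway were lower in SMARTseq. Lrp2, or megalin, had 2215 to 3277 CPM (median 2746) in NEBNext and 1110 to 1178 CPM (median 1152) in SMARTseq. Cubn, or cubilin, had 965 to 1139 CPM (median 1084) in NEBNext and 239 to 271 CPM (median 257) in SMARTseq, a log2 fold change of -2.07 ± 0.039. Rab11a, a small GTPase of recycling endosomes, was the member that was higher, at 0.54 ± 0.17, and its adjusted p rose to 0.266 on unscaled totals.

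Of 13 brush border peptidases and renin-angiotensin genes, 9 were higher in NEBNext and 4 higher in SMARTseq, with a median of -0.47. Anpep, an aminopeptidase of the brush border, had 233 to 259.8 CPM (median 243) in NEBNext and 54.2 to 62.4 CPM (median 58.3) in SMARTseq. Mep1a, a meprin subunit and the member with most counts, was at -0.73 ± 0.021. Ren1, the renin gene of the juxtaglomerular cells, was highest at 1.06 ± 0.031, with 278 to 297 CPM (median 287) in NEBNext and 579.8 to 615 CPM (median 598) in SMARTseq. The 246 solute carriers as a class had 140 members higher in NEBNext and 56 higher in SMARTseq, with a median of -0.32. Slc7a12 rose most of this class, at 1.96 ± 0.039.

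Distal segments varied from gene to gene. Of 13 genes of the distal convoluted and connecting tubule, 9 were higher in NEBNext and 4 higher in SMARTseq, with a median of -0.82. Wnk4, a kinase that regulates sodium chloride transport, was lowest, with 42.6 to 55.0 CPM (median 51.8) in NEBNext and 3.87 to 6.83 CPM (median 4.33) in SMARTseq. Klk1, a tissue kallikrein with a transcript of 954 nt, was highest and had 837 to 988 CPM (median 849) in NEBNext and 2007 to 2072 CPM (median 2056) in SMARTseq. Of 12 genes of the thick ascending limb, 6 were higher in NEBNext and 5 higher in SMARTseq. Egf, with the most counts, was at -0.65 ± 0.020, the chloride channel subunit Bsnd was lowest at -2.20 ± 0.090, and the phosphatase inhibitor Ppp1r1a was highest at 1.56 ± 0.045.

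In the collecting duct, 6 of 11 principal cell genes were higher in SMARTseq and 4 higher in NEBNext, with a median of 0.33 that was -0.0035 on unscaled totals. Aqp2, the water channel under vasopressin control, had 858 to 959 CPM (median 897) in NEBNext and 1840 to 1923 CPM (median 1904) in SMARTseq. The sodium channel subunit Scnn1a had 118 to 157 CPM (median 139) in NEBNext and 42.5 to 52.8 CPM (median 47.7) in SMARTseq, and Fxyd4, a small regulator of the sodium pump, rose by 2.08 ± 0.070. Aqp2 and Scnn1a, both of the same cell type, thus differed in opposite directions. Of 13 intercalated cell genes, 7 were higher in NEBNext and 3 higher in SMARTseq. The anion exchanger Slc4a9 was lowest at -1.91 ± 0.075, and the proton pump subunit Atp6v1g3 highest at 1.69 ± 0.066. Of 21 subunits of the vacuolar proton pump, 13 were higher in SMARTseq and 5 higher in NEBNext, with a median of 0.48. In this class the small Atp6v0e was at 2.18 ± 0.049 and the large Atp6v0a1 at -1.10 ± 0.064, and Atp6v0a4, with the most counts, at -0.40 ± 0.027.

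Immune genes were the cell type list that stood highest in SMARTseq. Of 12 members, 9 were higher in SMARTseq and 1 higher in NEBNext, with a median of 1.16. H2-Ab1, a chain of MHC class II, had 333 to 384 CPM (median 369) in NEBNext and 1381 to 1496 CPM (median 1447) in SMARTseq. Csf1r, the receptor that macrophages need for survival, was the member that was lower, with 108 to 133 CPM (median 116) in NEBNext and 30.9 to 40.5 CPM (median 35.6) in SMARTseq. The median transcript of the list was 1363 nt, that of Csf1r was 4701 nt, and relative to length classes the median of the list was 0.21.

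Metabolic programmes were divided. Of 27 genes of fatty acid oxidation, 18 were higher in SMARTseq and 8 higher in NEBNext, with a median of 0.54. Acadm, the medium-chain acyl-CoA dehydrogenase, had 1372 to 1473 CPM (median 1423) in NEBNext and 2568 to 2674 CPM (median 2614) in SMARTseq. Eci1 rose most, at 2.07 ± 0.035, and Hadha, a subunit of the trifunctional protein, fell most, at -1.65 ± 0.042. Of 15 genes of gluconeogenesis and ammonia production, 8 were higher in SMARTseq and 7 higher in NEBNext. Within this pathway, Fbp1, the fructose bisphosphatase, rose by 1.86 ± 0.024, from 1085 to 1169 CPM (median 1110) to 3966 to 4136 CPM (median 4064). Pcx, the pyruvate carboxylase, was lower at -3.05 ± 0.093, with 95.6 to 131 CPM (median 115) in NEBNext and 11.9 to 16.3 CPM (median 12.8) in SMARTseq.

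Of 18 cholesterol synthesis genes, 8 were higher in SMARTseq and 5 higher in NEBNext. Fdps was highest at 1.78 ± 0.13, and Cyp51, with the most counts, was at 0.06 ± 0.037 and not called (adjusted p = 0.141 in edgeR's test), though without NEBNext replicate 1 it was called at 0.084 (adjusted p = 0.036 in edgeR's test) and on unscaled totals it was at -0.28. Of 16 immediate early and heat shock genes, 7 were higher in SMARTseq and 5 higher in NEBNext. Hspa8 was at 0.59 ± 0.026, Dusp1 at 1.07 ± 0.044 and Jun at -1.46 ± 0.091. Of 34 cytochrome P450 genes, 14 were higher in SMARTseq and 10 higher in NEBNext. Cyp2d26, with the most counts, was not called (adjusted p = 0.471 in edgeR's test), but on unscaled totals was called at -0.36 (adjusted p = 7.11e-13 in edgeR's test). Cyp2d12 was at 1.28 ± 0.031 and Cyp2s1 at -1.60 ± 0.15, though genes of this family are alike in sequence.

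Lists of gene expression machinery came out on both sides. Of 50 translation factors, 24 were higher in SMARTseq and 20 higher in NEBNext, with a median of 0.13. Eef2, the elongation factor that moves the ribosome along, had 1730 to 1946 CPM (median 1808) in NEBNext and 415 to 449 CPM (median 438) in SMARTseq. Eif4g1, the scaffold of the cap-binding complex, was lowest at -2.33 ± 0.079, and Eef1akmt1, a methyltransferase taken up by its name, highest at 2.44 ± 0.10. Of 40 splicing factors, 22 were higher in SMARTseq and 14 higher in NEBNext, with a median of 0.46. Sf3b6 was at 2.57 ± 0.12, Hnrnpl at -1.56 ± 0.18 and Hnrnpa2b1, with the most counts, at 0.36 ± 0.044, and on unscaled totals at 0.019 with an adjusted p of 0.685. Of 204 Zfp genes, 76 were higher in NEBNext and 53 higher in SMARTseq, with a median of -0.12. Zfp871 was highest at 2.44 ± 0.12, Zfp395 lowest at -2.08 ± 0.13, and Zfp706, with the most counts, at 0.57 ± 0.052. Only 5 of 62 histone genes in the table were tested. Hist1h2bc was at 2.15 ± 0.039 and Hist1h2be at -0.45 ± 0.10.

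Most called genes without an established name were higher in SMARTseq. Of 343 genes with a Gm number or a RIKEN clone name, 184 were higher in SMARTseq and 86 higher in NEBNext, with a median of 0.56. Their median transcript was 1970 nt, against 3411 nt for all tested genes, and relative to length classes their median was -0.06. Gm13340, an unprocessed pseudogene on chromosome 2, held the most counts of any list member, with 27665 to 29892 CPM (median 29043) in NEBNext and 19403 to 19869 CPM (median 19690) in SMARTseq. Gm2710 rose most, at 3.01 ± 0.13, and Gm11407 fell most, at -3.26 ± 0.16. All 3 are pseudogenes whose reads cannot be told with certainty from those of near-identical copies. Among 6 named long noncoding RNAs, Malat1 was higher in SMARTseq and spread widely in NEBNext, with 2311 to 4712 CPM (median 3281) there and 5775 to 5869 CPM (median 5821) in SMARTseq. In SMARTseq, Malat1 had 32925 to 33184 counts with a variance of 0.27 of the mean, below that of counting noise. Whether a ceiling touched its level or spread there was not tested. Neat1, the RNA around which paraspeckles form, had 1513 to 1777 CPM (median 1676) in NEBNext and 521 to 559 CPM (median 549.6) in SMARTseq. Airn, an imprinted antisense transcript, was highest at 2.31 ± 0.12, and the counting was not stated to use strand.

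A small number of genes passed the count limit in all libraries of only 1 kit. There were 129 such genes with at least 10 counts in all 6 NEBNext libraries and under 10 in all 6 SMARTseq libraries, and 83 in the opposite case. The former had a median transcript of 4337 nt and 55.6% GC, and the latter of 940 nt and 48.7% GC. With the most counts in NEBNext, Slc13a2os had 74 to 146 counts there and 2 to 9 in SMARTseq. Tmem132a had 51 to 132 counts in NEBNext against 2 to 8 in SMARTseq, and Ssh3, a cofilin phosphatase, 70 to 96 counts against 2 to 8. In SMARTseq, Snord118, a small nucleolar RNA, had 84 to 125 counts and 1 to 4 in NEBNext. Minos1, an organiser of mitochondrial cristae, had 85 to 103 counts in SMARTseq against 1 to 7 in NEBNext, and Snord13 had 66 to 100 counts against 0 in all 6 NEBNext libraries. Slc13a2os is annotated as antisense. Exon parts shared by genes were left out of the gene models, but the counting was not stated to use strand.

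Allelic imbalance (AI), the share of a gene's counts that comes from the maternal allele, was then set beside abundance. Since all libraries came from the same animal, parent of origin and parental strain cannot be told apart in AI. A kit that changed both alleles of a gene by the same factor would leave AI as it was. AI differed between kits for 1069 of 10127 genes (10.6%) in edgeR's test of the allele-by-kit term, at an adjusted p of at most 0.05. The maternal share was higher in SMARTseq for 568 genes (5.61%) and lower for 501 (4.95%). Abundance differed for 80.2% of the same genes.

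Across genes, the size of the abundance shift was hardly correlated with the measured size of the AI shift. Spearman's rho between the absolute log2 fold change and the absolute difference in mean AI was 0.0014 across 10127 genes, and -0.011 across the 5053 genes with at least 100 counts in every library. With signs kept, rho was 0.0048 and -0.0062. The median absolute AI difference was 0.034 for genes that differed by less than 0.25 on the log2 scale and 0.035 for genes that differed by 2 or more. Measured AI differences also depended on counts. Among genes that differed by less than 0.25, the median was 0.045 at 10 to 99 counts in the lowest library and 0.027 at 300 or more. Counting noise in AI can therefore hide a relation, and a rho near 0 does not show that the shifts are unrelated. These correlations are descriptions across genes, which share the 12 libraries.

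The share of genes called for AI rose with counts, and at low and middle counts also with the abundance shift. Over all counts it was 10.4% of 1932 genes with an absolute log2 fold change below 0.25, and 12.5% of 649 genes at 2 or more. The median of mean counts rose as well, from 162 to 263. Among genes with 10 to 99 counts in their lowest library, the share rose from 3.10% to 6.48% between these classes, and among genes with at least 100 and under 300 from 8.29% to 17.6%. Among genes with at least 300, it was 25.5% and 27.4%. At a given lowest count, genes with larger shifts had more counts in the other kit, and the part of this in the shares was not tested. Of the 1878 genes at least 2-fold higher in SMARTseq, 14.0% were called for AI, 135 with a higher and 128 with a lower maternal share. Of the 1588 genes at least 2-fold higher in NEBNext, 8.38% were called, 65 with a higher and 68 with a lower maternal share, and these genes had fewer counts (median of mean counts 157, against 273).

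**Figure D5:**
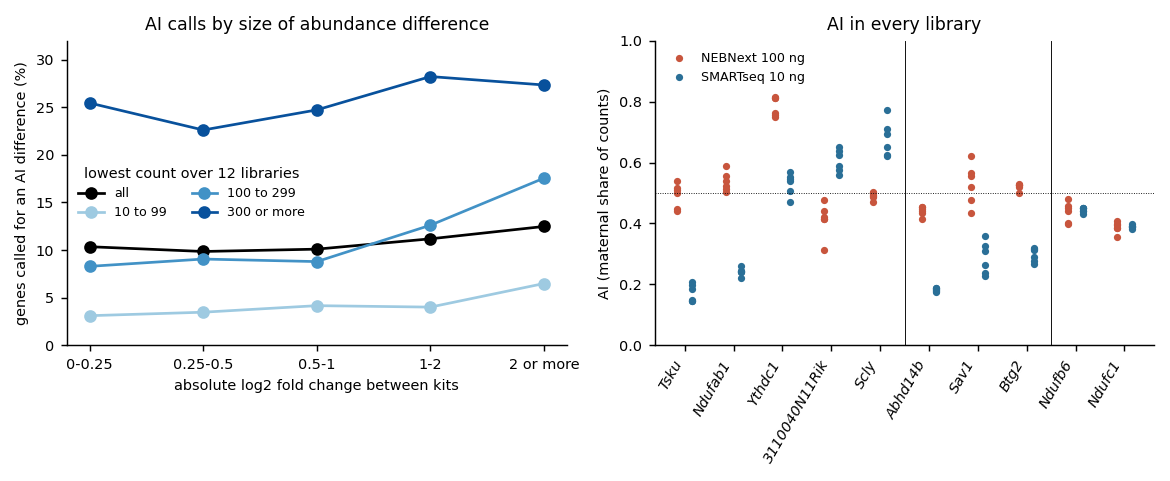
Left, percentage of genes called for an AI difference between kits, by absolute log2 fold change in abundance, for all tested genes and by the lowest count over the 12 libraries. Right, AI in each of 6 libraries per kit for genes with large AI and abundance shifts (left of the lines), genes with an AI shift at level abundance (middle) and genes with an abundance shift at level AI (right). Calls rise from 10.4% to 12.5% over all genes, and AI of Abhd14b lies at 0.414 to 0.453 in NEBNext and 0.174 to 0.189 in SMARTseq.

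On scaled totals, both alleles of most genes called for AI moved in the same direction by different amounts. Both alleles were higher in SMARTseq for 463 of 1069 genes (43.3%) and both higher in NEBNext for 341 (31.9%). One allele was higher and the other lower for 265 (24.8%). This split was counted only among genes called for AI, so it does not set them apart from other tested genes. Abundance was called for 932 of the 1069 genes (87.2%), against 80.2% of all tested genes, and not called for 137. The total maternal share of a library was 46.6% to 46.8% in NEBNext and 48.0% to 48.1% in SMARTseq. Without genes of 8000 or more counts it lay at or below 50.2% in all 12 libraries, at 50.1% or more in SMARTseq and 50.0045% or more in NEBNext, so that this difference lay in very abundant genes.

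Of the genes with both shifts, Tsku, which encodes the secreted proteoglycan tsukushi (chr7:98350668-98361328, GRCm38), had the largest. Its AI was 0.440 to 0.538 (median 0.504) in NEBNext and 0.145 to 0.207 (median 0.166) in SMARTseq. Its maternal counts fell by 2.53 and its paternal counts fell by 0.31 on the log2 scale. Ndufab1, the acyl carrier protein of complex I (chr7:122085403-122101886), had an AI of 0.503 to 0.589 (median 0.532) in NEBNext and 0.220 to 0.260 (median 0.242) in SMARTseq, as its maternal counts rose by 0.50 and its paternal counts by 2.36. Ythdc1, a reader of RNA methylation (chr5:86804221-86836659), went from 0.750 to 0.815 (median 0.788) to 0.470 to 0.570 (median 0.542). Here most counts came from the maternal allele in the NEBNext libraries, and the SMARTseq libraries were near balance. Whether parent of origin, strain or read alignment had a part in this was not tested. 3110040N11Rik went from 0.314 to 0.476 (median 0.417) to 0.558 to 0.652 (median 0.608). Scly, a selenocysteine lyase (chr1:91298338-91321075), went from 0.469 to 0.502 (median 0.491) to 0.621 to 0.771 (median 0.672), with maternal counts falling less than paternal counts. These 5 genes were chosen for the size of the AI difference, and adjusted p values in edgeR's test ran from 3.73e-13 to 3.36e-05.

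AI also shifted where abundance was level on scaled totals. Abhd14b (chr9:106447459-106452923) had 865 to 957 CPM (median 912) in NEBNext and 835 to 916 CPM (median 883) in SMARTseq, a log2 fold change of -0.06 ± 0.030 that was not called. Its AI was 0.414 to 0.453 (median 0.445) in NEBNext and 0.174 to 0.189 (median 0.183) in SMARTseq (adjusted p = 2.72e-23 in edgeR's test). Its maternal counts fell by 1.33 while its paternal counts rose by 0.49. Btg2, an antiproliferative immediate early gene (chr1:134075170-134079120), had 90.6 to 116 CPM (median 109) in NEBNext and 106 to 115 CPM (median 108) in SMARTseq, with an AI of 0.501 to 0.530 (median 0.526) and 0.268 to 0.320 (median 0.301). Sav1, a scaffold of the Hippo pathway (chr12:69965012-69987002), had an AI of 0.435 to 0.623 (median 0.537) in NEBNext and 0.226 to 0.360 (median 0.287) in SMARTseq. These 3 genes were chosen for the size of the AI difference, and for all 3 the SMARTseq libraries had the lower maternal share. The log2 fold changes of these genes rest on the scaling, and on unscaled totals all 3 were called lower in SMARTseq. There Abhd14b was at -0.39, Btg2 at -0.29 and Sav1 at -0.41, with adjusted p values of 4.71e-13, 4.05e-05 and 0.0024 in edgeR's test.

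The converse was seen for genes with a large abundance shift and level AI. Ndufb6 rose by 3.18 ± 0.044, and its AI was 0.397 to 0.481 (median 0.445) in NEBNext and 0.430 to 0.452 (median 0.446) in SMARTseq. Ndufc1, another complex I subunit, had 375 to 426 CPM (median 405) in NEBNext and 2877 to 2948 CPM (median 2934) in SMARTseq, and an AI of 0.356 to 0.408 (median 0.391) and 0.382 to 0.397 (median 0.391). Ndufc1 had 16424 to 16712 counts in SMARTseq and so was among the genes past 8000 counts, and whether this touched its AI was not tested. AI ranges of the kits overlapped for both genes, which were chosen for a mean AI difference under 0.02. These genes do not stand for the respiratory chain list. Of its 59 tested members, 23 were called for AI, against 10.6% of all tested genes. The share called rose with counts, and 16 of the 59 reached 8000 counts in a library.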

How the data were processed

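RNA-seq of mouse kidney was analysed from 12 libraries, 6 per kit, grouped by their titles. Per the study's methods, the authors aligned reads with STAR (version 2.5.4a in the submitters' processing notes) to a pseudogenome of each strain (GRCm38) and used reads with a single alignment. Libraries of an experiment were sampled to equal size. Alleles were counted at SNPs with SAMtools, and the counts of all SNPs in a gene's exons were added, except where genes overlap. The deposited counts are whole numbers per gene, library and allele, without normalization. Only reads over SNPs count, and a read over several SNPs may count more than once, so levels were compared between kits and not between genes.

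Genes needed at least 10 counts in each of the 12 libraries. Abundance (maternal plus paternal counts) was tested with edgeR 4.0.16 (quasi-likelihood test, TMM factors of 1.12 to 1.13 in NEBNext and 0.885 to 0.895 in SMARTseq), and AI in a model with a term per library, the allele, and the allele by kit, in R 4.3.3. P-values were Benjamini-Hochberg adjusted over all genes, at 0.05. DESeq2 1.42.0 and limma 3.58.1 served as alternatives. Measures with 1 value per library were tested by exact permutation in Python 3.11.15. The tests were checked on simulated counts. Lengths, GC contents and biotypes came from GENCODE M21.

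The comparison, gene lists and rules were chosen with earlier results of these data known. Named genes were, per direction, the 10 largest fold changes with at least 100 counts in every library of the higher kit and separate ranges, for each list the member with most counts and the called members with highest and lowest fold change, and genes with large AI and abundance shifts (5), with an AI shift at an absolute log2 fold change under 0.1 (3), with an abundance shift at an AI difference under 0.02 (3), or past the count limit in 1 kit only (3 each). The SMARTseq 100 pg libraries and the Abl clones were not used here, nor were the deposited tables of AI.
Fold changes relative to length classes, and the fit without genes of 8000 or more counts in a library, were chosen after seeing the data. Some genes that the rule names are not reported here.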

Additional observations from a re-analysis of the deposited data

Results flagged for a closer look

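In 232 sets of 6 libraries (4 measures and 112 named genes in both kits), 18 had a highest or lowest library whose gap to the nearest other library, as a share of the range, exceeded Dixon's 95% critical value. Chance alone flags about 1 in 20 such sets. NEBNext replicate 1 was the library that stood apart in 7 of the 18, and no explanation was tested.

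NEBNext replicate 1 was high for the spread between replicates (gap 0.732 of the range), Hint1 (0.668), Cldn5 (0.679), Rps12 (0.632) and Gstz1 (0.679), and low for Podxl (0.769) and Atp6v0a1 (0.715). Podxl was at 266 CPM in that library and at 343 to 367 CPM in the other 5. The other NEBNext flags were Cox14, low in replicate 2 (0.629), and Atp6v0a4, high in replicate 4 (0.637).

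In SMARTseq, Midn (0.626), Slc7a12 (0.685) and Gm2710 (0.694) were high in replicate 2, and Sik1 (0.701) and Eci1 (0.691) were high in replicate 3. Hadha was low in replicate 4 (0.750), Ythdc1 low (0.721) and Sf3b6 high (0.664) in replicate 5, and Psmb1 low in replicate 6 (0.708). Each of these genes kept separate CPM ranges between the kits.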

How the results depend on the processing

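Counts of genes with an abundance difference lay between 7342 and 10545 over all alternatives, against 8123, and between 7991 and 8218 with 1 library left out. At 2-fold the count was 3466, and 3458 to 3554 with 1 library left out. It was 5948 with no filter on low counts, which tests 20149 genes, 5809 at a 1.5-fold limit and 2647 when tested against 2-fold. AI calls fell from 1069 to 691 with limma on logit AI and to 291 with Bonferroni adjustment, and were 925 to 1089 with 1 library left out. The excess of counts in the 100 most abundant genes in SMARTseq (2.27 points) turned to -1.56 points for the 10 most abundant genes. Spearman's correlation of abundance against AI shift moved from 0.0014 to -0.011, and with signs from 0.0048 to -0.0062, at a minimum of 100 counts.

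With 1 library left out, the other per-library differences ranged from -369.0 to -346 genes detected, from 2.22 to 2.32 points for the 100 most abundant genes, from -7.36 to -7.06 points for the longest genes and from -0.035 to -0.017 for the spread.

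On unscaled totals log2 fold changes changed sign for Emcn (-0.090), Cyp51 (-0.28), Col8a1 (-0.024) and Btg2 (-0.29). Cyp2d26 turned to 0.011 with no filter and to 0.0040 without NEBNext replicate 4. Log2 odds ratios of AI near 0 turned sign with 1 library left out for Ndufc1 (-0.024) and Ndufb6 (-0.013 and -0.014). Relative to all genes, the principal cell median moved to 0.26 and that of splicing factors to 0.42 at a minimum of 20 counts. The cause was not tested for any of these.

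Same-numbered libraries of the kits share only a number, with correlations of their deviations from -0.017 to 0.010. With the replicate number as a block, 8058 genes were called for abundance, 3481 at 2-fold and 984 for AI. Counts under 100 per library limit AI, for which few such genes were called.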
